A study of Mus musculus with 20 samples.

Results

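The comparison set the effect of deleting an MHC class II gene in Tie2Cre-expressing cells beside the effect of losing T cell receptor-bearing T cells, in endothelial cells sorted from E0771 tumours. The E0771 line derives from a mouse mammary carcinoma, was grown in the fat pad of C57BL/6J mice and was resected once tumours reached 500 mm3. CD31-positive cells were enriched with microbeads, sorted, and sequenced in bulk as total RNA. The comparison used 14 of the 20 libraries of the series. The Tie2Cre_H2Abf group (4 libraries) came from hosts with the Tie2Cre transgene and a floxed H2-Ab1 gene (Tie2Cre;H2Ab fl/fl), and its control, the Tie2Cre group (3 libraries), carried the transgene. The TCRKO group (3 libraries) came from T cell receptor knockout hosts, and its control was WT (4 libraries). The submitters class Tie2Cre_H2Abf and TCRKO as deficient in CD4+ T cells and Tie2Cre and WT as competent. Host age, the receptor gene deleted in TCRKO, the deleted part of H2-Ab1, and whether each library is a separate animal are not given in the sources used here, so p-values measure the spread between libraries, which may be partly technical.

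For each gene 3 quantities were formed on the log2 scale. The class II deletion effect is Tie2Cre_H2Abf minus Tie2Cre, the TCRKO effect is TCRKO minus WT, and the difference of effects is the class II deletion effect minus the TCRKO effect. The effects share no library, so the average of both effects (the mean effect) was tested as well, to find genes that moved alike. A gene was called at a Benjamini-Hochberg adjusted p under 0.05 from edgeR's quasi-likelihood test over all 14875 genes tested, and changes are given with their standard error. Levels are in CPM, the usual library-size-scaled counts, after TMM scaling, which corrects for differences in library composition, and are listed in order of library number within a group.

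MHC class II molecules present peptides to CD4+ T cells. H2-Ab1 encodes the beta chain of the I-A molecule, Cd74 the invariant chain that escorts class II molecules to the endosome, and Ciita the master coactivator of these genes. Interferon-gamma, made mainly by T and NK cells, induces class II genes, guanylate-binding proteins and chemokines such as Cxcl9 in endothelial cells. Tie2 (Tek) is expressed in endothelial cells and in part of the blood lineage, so a Tie2Cre deletion reaches both.

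Library totals ran from 1543847 to 11478902 expected counts. Protein-coding genes held 12.8% to 51.2% of them, and small and ribosomal RNA 35.2% to 84.9%. A count of 3 in a library, taken as the floor of detection, was worth 0.356 to 2.46 CPM. The satellite-like transcript Gm10800 took 33.5% of counts in WT_9771 and 14.3% in Tie2Cre_9501, against at most 1.78% in the other 12. Some of the results that removal of these 2 libraries moved are also given without them. The endothelial gene Pecam1, which encodes CD31, had 909 to 1360.2 CPM in Tie2Cre_H2Abf, 714 to 1377 CPM in Tie2Cre, 534 to 826 CPM in TCRKO and 435 to 1207 CPM in WT. The 23 endothelial identity genes summed to 7779 to 11798 CPM in Tie2Cre_H2Abf, 5123 to 9473 CPM in Tie2Cre, 3953 to 5931 CPM in TCRKO and 3375 to 8091 CPM in WT. In bulk samples fewer cells of a type and less RNA per cell cannot be told apart.

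The targeted class II gene followed its label. H2-Ab1 (GRCm38 chr17:34257689-34269419) had 6.37, 1.19, 0.712 and 4.34 CPM in Tie2Cre_H2Abf libraries, against 25.3, 96.2 and 59.95 CPM in Tie2Cre libraries. It fell by 4.26 on the log2 scale (SE 0.59, edgeR adjusted p = 0.00214), with no overlap between the groups. This call was lost in 1 of 23 alternative fits, that with effective-length offsets (edgeR adjusted p = 0.0907). In the other pair it had 66.4, 59.3 and 56.2 CPM in TCRKO libraries, against 184, 138, 58.3 and 78.7 CPM in WT libraries, a TCRKO effect of −0.92 ± 0.55 that did not pass (edgeR adjusted p = 0.621). Its difference of effects was −3.33 ± 0.77 (edgeR adjusted p = 0.212). The counts cover the whole gene, and the deposited values do not separate the floxed part from the rest.

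T cell transcripts were few in most libraries and varied between libraries of a group, and the deleted receptor gene is not named, so the TCRKO label was not checked. The co-receptor gene Cd4 had 0, 0, 3.74 and 0 CPM in Tie2Cre_H2Abf, 5.29, 1.22 and 1.01 CPM in Tie2Cre, 4.56, 4.28 and 1.14 CPM in TCRKO and 2.81, 8.71, 15.6 and 0.379 CPM in WT. The receptor alpha constant gene Trac had 14 counts in all Tie2Cre_H2Abf libraries together, 0 in Tie2Cre, 17 in TCRKO and 1 in WT. Trbc1, a beta constant gene, had 2, 2, 6 and 1 counts in the same groups and order, and the other beta constant gene, Trbc2, had 8, 0, 0 and 0. Cd3e, a chain of the CD3 complex, had 11, 4, 1 and 0 counts. The interferon-gamma gene Ifng was at 0 in all 14 libraries.

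Across genes, the average of both effects was called in 11 genes, with the smallest adjusted p for Fbln2, Cadm3 and Fbn1, all lower. The genes nearest to a call for the difference were Gbp2, Cd74 and Wars. The class II deletion effect was called in 3 genes (0.0202% of those tested), all lower, and the TCRKO effect in 4 (0.0269%), with 2 higher and 2 lower. All 4 TCRKO calls (Cadm3, Fbn1, Col6a2 and Trp53inp2) were lost in the fit of the 4 groups alone and in each fit without a Tie2Cre_H2Abf library, a TCRKO library, Tie2Cre_9502 or WT_9748, where the edgeR adjusted p ran up to 0.324. The 11 mean effect calls (0.0739%) were 10 lower and 1 higher. The difference of effects was called in 0 genes (0.0%), with a smallest edgeR adjusted p of 0.0958, while 1011 genes (6.8%) had an unadjusted p under 0.05, 452 higher (3.04%) and 559 lower (3.76%). DESeq2 called 64 genes for the difference, 46 higher and 18 lower, and limma-voom called 0 with 1064 at an unadjusted p under 0.05.

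At an unadjusted p under 0.05, used here to choose genes for description, the class II deletion effect held 1271 genes (8.54% of those tested), 400 higher (2.69%) and 871 lower (5.86%). The TCRKO effect held 1286 (8.65%), 593 higher (3.99%) and 693 lower (4.66%). The lists shared 166 genes, 13.1% of the class II list and 12.9% of the TCRKO list. Of these, 123 had the same sign (0.827% of genes tested), 27 higher and 96 lower, and 43 had opposite signs (0.289%), 25 of them higher in the class II deletion effect. The split of the alike genes depended on the fit, with 40 higher and 50 lower without WT_9771 and Tie2Cre_9501, 40 higher and 49 lower with limma-voom, and 21 higher and 139 lower with RLE factors. Among 4068 genes with a mean of at least 10 CPM, 39 had the same sign (0.959%), 18 higher and 21 lower. A further 15 had opposite signs (0.369%), and all 15 were higher in Tie2Cre_H2Abf than in Tie2Cre and lower in TCRKO than in WT, as were 18 of 20 without the 2 satellite-rich libraries. Since both effects had to pass the same selection, such genes also have a large difference or mean of effects by construction.

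Over the whole table the effects were weakly related. Pearson's r across genes was 0.27 over all 14875 genes and 0.10 over the 4068 genes of at least 10 CPM, where 50.02% had the same sign in both effects. Without WT_9771 and Tie2Cre_9501, r was −0.0012 over all genes and 0.046 over those of at least 10 CPM. These are descriptions across genes, which share libraries and are not independent. The median gene had a class II deletion effect of −0.24 and a TCRKO effect of −0.20 with TMM factors. With RLE factors these medians were −0.43 and −0.32. Among the 4068 genes of at least 10 CPM they were 0.19 and −0.067 with TMM factors. The median difference of effects was 0.26 for those 4068 genes, against −0.050 over all genes. Changes, and the list medians below, are read relative to these shifts.

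**Figure D1:**
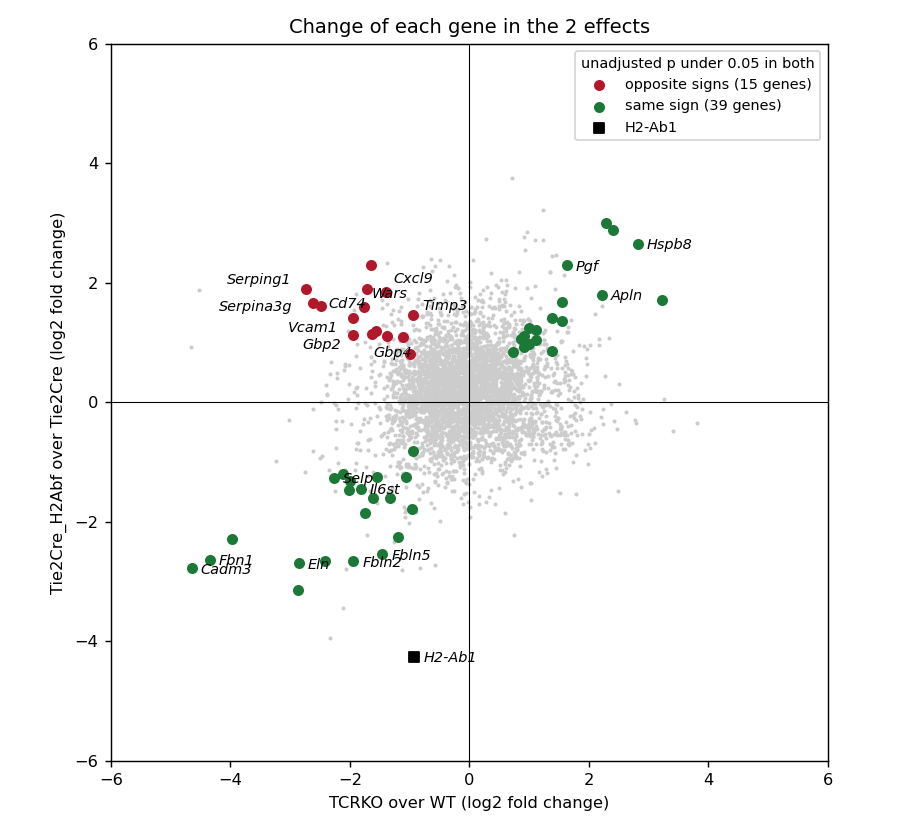
TCRKO effect (horizontal axis, log2) against class II deletion effect (vertical axis, log2) for 4068 genes with a mean of at least 10 CPM, each point 1 gene, with genes at an unadjusted p under 0.05 in both effects in colour and H2-Ab1 as a black square. The 15 genes with opposite signs lie at the upper left, where the class II deletion effect is above 0 and the TCRKO effect below 0, and Fbln2, Fbn1 and Cadm3 lie at the lower left, where both are below 0.

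The genes with the smallest p for a higher difference of effects were Gbp2, Cd74 and Wars, all known to be induced by interferon-gamma. They headed the order, each with an edgeR adjusted p of 0.0958, and each had opposite signs in the 2 effects. Promoter sequences are shown for 3 genes in which a search for interferon-type motifs found a match, 2 of the opposite set and 1 lower in both effects. They run from 250 bases before to 50 bases after the RefSeq start of the gene, 5′ to 3′ on the gene's strand, build GRCm38.p6. Gene positions given elsewhere in the text come from another annotation, whose start of Gbp2 differs and lies within the window. The Gbp2 window lies at chr3:142620413-142620712 on the plus strand, that of Serpina3g at chr12:104235897-104236196 on the plus strand and that of Fbn1 at chr2:125506389-125506688 on the minus strand. Capitals mark the match.
Gbp2: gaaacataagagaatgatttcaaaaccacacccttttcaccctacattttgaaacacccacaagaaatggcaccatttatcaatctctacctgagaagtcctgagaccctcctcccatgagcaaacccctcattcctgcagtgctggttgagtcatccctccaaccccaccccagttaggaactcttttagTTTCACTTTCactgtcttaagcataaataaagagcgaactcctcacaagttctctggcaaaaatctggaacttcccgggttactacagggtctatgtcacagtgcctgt
Serpina3g: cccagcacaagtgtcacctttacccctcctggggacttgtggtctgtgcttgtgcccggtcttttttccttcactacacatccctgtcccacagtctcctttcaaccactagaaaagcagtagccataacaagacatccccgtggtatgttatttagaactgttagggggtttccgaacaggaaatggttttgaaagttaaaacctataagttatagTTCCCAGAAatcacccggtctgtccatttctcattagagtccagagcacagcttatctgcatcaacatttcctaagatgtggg
Fbn1: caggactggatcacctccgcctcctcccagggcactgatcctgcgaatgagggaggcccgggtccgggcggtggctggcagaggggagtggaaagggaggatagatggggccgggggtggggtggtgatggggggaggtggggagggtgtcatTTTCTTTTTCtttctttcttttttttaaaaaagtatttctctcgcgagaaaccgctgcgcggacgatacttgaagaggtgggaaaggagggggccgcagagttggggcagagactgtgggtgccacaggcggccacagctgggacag
Both strands were searched for GAS, the letters TTCNNNGAA to which STAT factors can bind, and for a pair of IRF half-sites, GAAANNGAAA or TTTCNNTTTC on the other strand. The IRF pair stood at bases 192 to 201 of the Gbp2 window and 154 to 163 of the Fbn1 window, and GAS at bases 218 to 226 of the Serpina3g window. Of 27025 promoter windows of 300 bases, 8.47% held GAS and 3.49% the IRF pair. Of the 10 named opposite genes 5 were in the table, with 1 GAS and 1 IRF pair match. Of 10 genes lower in both effects 8 were in the table, with 1 IRF pair and 0 GAS matches, and of 10 higher in both effects 8 were in the table, with 0 of either. The motifs were chosen after the values were seen, and a match is a description of letters, not of binding.

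Gbp2, an interferon-induced GTPase of the guanylate-binding family (GRCm38 chr3:142620602-142638008), had 398, 169, 249 and 406 CPM in Tie2Cre_H2Abf libraries, against 95.6, 176 and 145 CPM in Tie2Cre libraries. It had 65.8, 62.5 and 29.6 CPM in TCRKO libraries, against 127, 259.98, 194 and 229.8 CPM in WT libraries. The TCRKO and WT libraries did not overlap, while 1 Tie2Cre_H2Abf library lay below the highest Tie2Cre library. The class II deletion effect was 1.13 ± 0.39 and the TCRKO effect −1.94 ± 0.40, a difference of 3.08 ± 0.56.

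Cd74 (GRCm38 chr18:60803848-60812652) had 960.4, 496, 333 and 768 CPM in Tie2Cre_H2Abf libraries, against 111, 311 and 204 CPM in Tie2Cre libraries. In the other pair it had 226, 129.96 and 88.7 CPM in TCRKO libraries, against 1511, 1223, 337 and 227 CPM in WT libraries. Neither pair overlapped, though the highest TCRKO library lay just under the lowest WT library. The class II deletion effect was 1.61 ± 0.54 and the TCRKO effect −2.48 ± 0.56, a difference of 4.09 ± 0.77. Mean levels were 639 ± 279.5, 209 ± 100.2, 148 ± 70.5 and 825 ± 639 CPM (SD) in Tie2Cre_H2Abf, Tie2Cre, TCRKO and WT, so the mean of the Tie2Cre control was below that of the WT control, a contrast that was not tested and whose libraries overlapped. The library numbers of both Tie2Cre groups and those of TCRKO and WT form separate runs that the labels do not explain, so a possible cohort and the genotype background cannot be told apart in that contrast. Without the 2 satellite-rich libraries the TCRKO effect of Cd74 passed (edgeR adjusted p = 0.0212), as did that of Gbp2 (edgeR adjusted p = 0.0392). The class II deletion effects of Cd74 and Gbp2 were then 1.29 and 0.90 and did not pass (edgeR adjusted p = 0.867 for each). Their differences of effects were then 3.96 and 2.79 (edgeR adjusted p = 0.101 for each).

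Wars, the cytosolic tryptophanyl-tRNA synthetase that interferon-gamma induces (GRCm38 chr12:108860030-108894174), had 299, 120.4, 154 and 326 CPM in Tie2Cre_H2Abf libraries, against 54.04, 131 and 37.7 CPM in Tie2Cre libraries. It had 31.7, 54.8 and 35.01 CPM in TCRKO libraries, against 206, 128, 107 and 107 CPM in WT libraries. TCRKO lay wholly below WT, and the lowest Tie2Cre_H2Abf library lay under the highest Tie2Cre library. Its difference of effects was 3.35 ± 0.64.

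Gbp4, another guanylate-binding protein, had 264, 132, 104 and 189 CPM in Tie2Cre_H2Abf, against 46.9, 100.2 and 90.4 CPM in Tie2Cre, and 70.8, 50.6 and 40.2 CPM in TCRKO, against 122, 179, 153 and 105 CPM in WT. Its groups did not overlap in either pair, and its difference of effects was 2.49 ± 0.56 (edgeR adjusted p = 0.212). Cxcl9, a chemokine that draws CXCR3-bearing T cells, had 490.4, 128, 114 and 411 CPM in Tie2Cre_H2Abf, against 47.2, 102 and 89.7 CPM in Tie2Cre, and 59.98, 40.98 and 55.02 CPM in TCRKO, against 95.02, 209, 162 and 80.8 CPM in WT. These groups did not overlap either, and the difference was 3.24 ± 0.77 (edgeR adjusted p = 0.218). Within Tie2Cre_H2Abf, Tie2Cre_H2Abf_9576 and Tie2Cre_H2Abf_9589 were the highest for Gbp2, Cd74, Wars, Gbp4 and Cxcl9. The same held for Serpina3g, Serping1, Timp3 and Vcam1 below, and so for every named opposite gene given by library. The same libraries had the lowest TMM factor of this group (0.523 and 0.602) and the largest shares of small and ribosomal RNA (84.9% and 82.1%), and the part of this in the result was not tested.

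Serpina3g, a serine protease inhibitor, had 104, 61.99, 45.6 and 127 CPM in Tie2Cre_H2Abf, against 30.99, 20.8 and 28.8 CPM in Tie2Cre, and 9.11, 9.15 and 4.09 CPM in TCRKO, against 69.7, 30.4, 62.4 and 23.1 CPM in WT. Neither pair overlapped, and the difference of effects was 4.28 ± 0.90 (edgeR adjusted p = 0.177). Serpina3g belongs to a cluster of near-identical genes among which RSEM shares reads, so its own value is uncertain, as is that of single Gbp and H2-Q genes. Serping1, the C1 inhibitor of the complement and contact systems, had 229.6, 27.9, 25.98 and 205 CPM in Tie2Cre_H2Abf, against 52.1, 22.9 and 24.3 CPM in Tie2Cre, and 0.985, 8.43 and 3.18 CPM in TCRKO, against 24.00, 26.1, 28.7 and 34.1 CPM in WT. Only the TCRKO and WT libraries of Serping1 were fully apart, and 2 Tie2Cre_H2Abf libraries lay among the Tie2Cre libraries. Its difference of effects was 4.62 ± 1.003 (edgeR adjusted p = 0.209).

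Timp3, Vcam1 and Ttc17 were also among the named opposite genes. Timp3, a matrix-bound inhibitor of metalloproteinases, had 714, 361, 470.2 and 693 CPM in Tie2Cre_H2Abf, against 114, 299 and 197 CPM in Tie2Cre, and 215, 208 and 143 CPM in TCRKO, against 296, 465, 313 and 378 CPM in WT. Its groups were apart in both pairs, with a difference of effects of 2.40 ± 0.50 (edgeR adjusted p = 0.177). Vcam1, the endothelial ligand of the integrin VLA-4 on lymphocytes, had 123, 47.4, 61.04 and 135 CPM in Tie2Cre_H2Abf, against 52.1, 43.02 and 8.56 CPM in Tie2Cre, and 22.8, 14.4 and 18.9 CPM in TCRKO, against 101, 55.6, 75.5 and 57.2 CPM in WT. TCRKO lay wholly below WT for Vcam1, whose difference of effects was 3.36 ± 0.76 (edgeR adjusted p = 0.212). Ttc17, a tetratricopeptide repeat gene, had mean levels of 15.3 ± 4.45 CPM in Tie2Cre_H2Abf and 3.97 ± 4.17 CPM in Tie2Cre, and 10.5 ± 4.46 CPM in TCRKO and 34.6 ± 14.4 CPM in WT (SD). The remaining members of the 15 opposite genes were Gbp6, H2-DMb1, H2-Eb1, Plat and Slco2a1, named to complete the count. Of the 10 named opposite genes, 5 had no overlap in both pairs, against 0.282% of all genes tested with opposite signs. The named genes were chosen by their p in both effects. Without the 2 satellite-rich libraries the difference of effects was smaller for each of these 10 genes except Serping1 (4.97) and Vcam1 (3.68). It was then 2.08 for Gbp4, 2.08 for Timp3 and 2.77 for Cxcl9, and none of the 10 passed (edgeR).

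**Figure D2:**
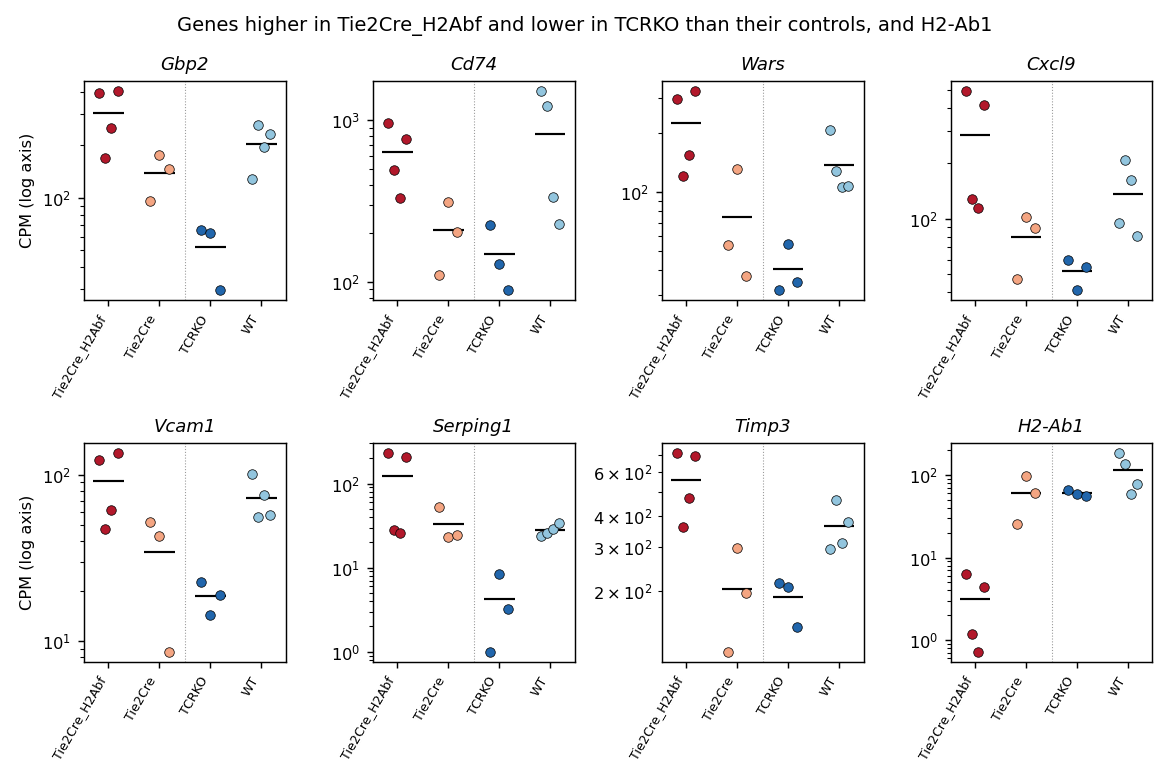
Level in CPM (log axis) of Gbp2, Cd74, Wars, Cxcl9, Vcam1, Serping1, Timp3 and H2-Ab1, 1 point per library and a black bar at the group mean, with Tie2Cre_H2Abf left of Tie2Cre and TCRKO left of WT. Cd74, Cxcl9 and Timp3 show no overlap in either pair, and H2-Ab1 is far lower in Tie2Cre_H2Abf.

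Most class II presentation genes other than H2-Ab1 had a class II deletion effect above 0 and a TCRKO effect below 0. Of 11 listed genes 10 were tested, with a median class II deletion effect of 1.68 and a median TCRKO effect of −1.62, against −0.24 and −0.20 over all genes. In the class II deletion effect 6 were higher and 1, H2-Ab1, lower at an unadjusted p under 0.05 (3 and 1, with a median of 1.33, without the 2 satellite-rich libraries), and in the TCRKO effect 0 were higher and 6 lower. The median difference was 3.35, with 6 higher and 1 lower, and 3.37 with 5 higher and 1 lower without the 2 satellite-rich libraries. H2-Ob, at 0 counts in Tie2Cre and TCRKO, leaves the median at 3.35 when set at the bound that 3 counts allow. H2-Eb1, the beta chain of the I-E molecule, whose alpha chain gene is defective in C57BL/6 mice, averaged 68.9 ± 18.2 CPM in Tie2Cre_H2Abf and 30.1 ± 8.06 CPM in Tie2Cre, and 20.6 ± 6.92 CPM in TCRKO and 60.8 ± 44.4 CPM in WT (SD), a difference of effects of 2.76 ± 0.75. H2-DMb1, a chain of the peptide editor H2-DM, averaged 28.5 ± 9.80 CPM in Tie2Cre_H2Abf and 5.66 ± 4.54 CPM in Tie2Cre, and 8.17 ± 3.95 CPM in TCRKO and 25.3 ± 11.8 CPM in WT, a difference of 3.95 ± 1.04. Ciita, named after its values were seen, had a class II deletion effect of 2.70 ± 1.22 and a TCRKO effect of −3.003 ± 1.24. H2-Aa, the partner chain of H2-Ab1 and also named after its values were seen, had effects of 0.43 ± 0.51 and −1.65 ± 0.53. H2-DMa was the exception in sign among the named members, with 1.75 ± 0.73 in the class II deletion effect and 0.27 ± 0.70 in the TCRKO effect. None of these other class II genes passed in either effect (edgeR).

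Class II genes are also expressed by macrophages, dendritic cells and B cells, which a Tie2Cre deletion can reach. The 18 macrophage markers summed to 686 to 1713 CPM in Tie2Cre_H2Abf, 672 to 1195 CPM in Tie2Cre, 1149 to 1748 CPM in TCRKO and 610 to 2103 CPM in WT. Of these markers 0 had an unadjusted p under 0.05 for the difference of effects, and their median class II deletion and TCRKO effects were 0.15 and −0.16. The 9 dendritic cell markers summed to 29.1 to 41.4 CPM in Tie2Cre_H2Abf, 24.8 to 102 CPM in Tie2Cre, 29.8 to 96.8 CPM in TCRKO and 60.7 to 99.7 CPM in WT. The 7 B cell markers summed to 0.579 to 6.23 CPM, 1.10 to 16.6 CPM, 1.60 to 10.2 CPM and 1.70 to 12.3 CPM in the same groups. For the 19 T and NK cell markers, of which 5 were tested, the sums were 4.25 to 19.8 CPM, 8.53 to 31.4 CPM, 12.7 to 15.004 CPM and 1.33 to 78.8 CPM. The part of these cells in the class II values was not tested.

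**Figure D3:**
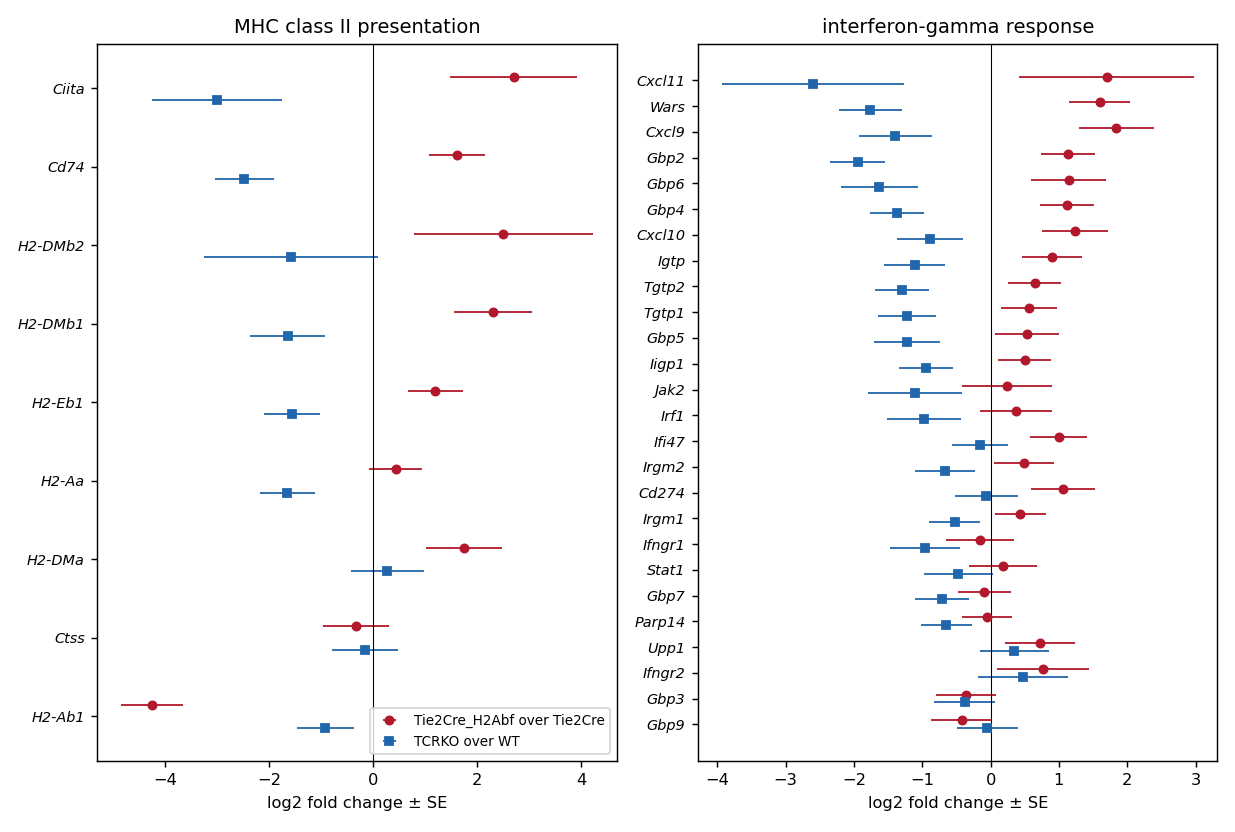
Class II deletion effect (red circles) and TCRKO effect (blue squares), in log2 with bars of 1 standard error, of each class II presentation gene (9 drawn) and each interferon-gamma response gene (26 drawn) with over 3 counts in every group. Most members lie above 0 in the class II deletion effect and below 0 in the TCRKO effect, and H2-Ab1 lies far below 0 in the class II deletion effect.

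The interferon-gamma response genes had the same signs as a group. Of 28 listed genes 27 were tested, with a median class II deletion effect of 0.65 and a median TCRKO effect of −0.96. At an unadjusted p under 0.05, 8 were higher and 0 lower in the class II deletion effect (5 and 1 without the satellite-rich libraries). In the TCRKO effect 0 were higher and 10 lower (0 and 12 without those libraries). At the same p, 2.69% of all genes tested were higher in the class II deletion effect and 4.66% lower in the TCRKO effect. The difference of effects was above 0 in 26 of the 27, with a median of 1.35, 12 higher and 0 lower, and 0 passing adjustment over all genes. The median ran from 1.16 to 1.62 over the alternatives and was 1.25 without the 2 satellite-rich libraries. Cd274, the checkpoint ligand PD-L1, averaged 83.9 ± 34.4 CPM in Tie2Cre_H2Abf and 40.2 ± 14.2 CPM in Tie2Cre, and 45.2 ± 23.8 CPM in TCRKO and 47.5 ± 19.4 CPM in WT (SD), with a difference of 1.12 ± 0.66. Ifngr1, a chain of the interferon-gamma receptor, had a difference of 0.80 ± 0.71.

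Class I genes had medians of the same signs. The 18 class I and peptide-loading genes had a median class II deletion effect of 0.74, TCRKO effect of −0.48 and difference of 1.42, with 8 higher and 0 lower for the difference at an unadjusted p under 0.05. Without the 2 satellite-rich libraries the class II deletion median was 0.455, with 2 higher and 0 lower. H2-Q7, a non-classical class I gene, averaged 499 ± 105 CPM in Tie2Cre_H2Abf and 174 ± 55.4 CPM in Tie2Cre, and 189 ± 32.6 CPM in TCRKO and 266 ± 79.3 CPM in WT (SD). Its difference was 2.02 ± 0.47, and that of its near-identical neighbour H2-Q6 was 1.95 ± 0.57. Tap1, a subunit of the peptide transporter, and Erap1, the peptide trimmer, had differences of 1.67 ± 0.57 and 2.79 ± 0.98. The 24 type I interferon genes had medians of 0.16 in the class II deletion effect (−0.097 without the satellite-rich libraries), 0.0047 in the TCRKO effect, whose sign changed in 8 of 23 alternatives, and 0.22 in the difference, with 1 higher and 0 lower for the difference. Zbp1, a sensor of nucleic acids, was that gene, with a difference of 2.04 ± 0.72, while the antiviral gene Oas2 had 1.56 ± 0.85. The sign of the list's median difference changed in 2 alternatives, without Tie2Cre_H2Abf_9589 and without Tie2Cre_9501, where it was as low as −0.031.

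Genes with a lower class II deletion effect than TCRKO effect were led by H2-Ab1. Trp53inp2, a regulator of autophagy, had 25.5, 14.7, 25.4 and 22.7 CPM in Tie2Cre_H2Abf, against 18.5, 23.3 and 22.04 CPM in Tie2Cre, and 30.5, 33.6 and 25.7 CPM in TCRKO, against 2.65, 6.58, 0 and 2.27 CPM in WT. It rose in TCRKO by 3.26 ± 0.59 (edgeR adjusted p = 0.0339) with no overlap, a call lost in 13 of 23 alternatives, while its class II deletion effect was 0.05 ± 0.55. The difference was −3.21 ± 0.79 (edgeR adjusted p = 0.287). All Tie2Cre_H2Abf and Tie2Cre libraries also lay above the WT libraries for Trp53inp2, a contrast that was not tested. Fabp4, a fatty acid-binding protein of capillary endothelium, had 48.3, 13.7, 28.8 and 24.2 CPM in Tie2Cre_H2Abf, against 214, 201 and 156 CPM in Tie2Cre, and 47.4, 25.8 and 43.6 CPM in TCRKO, against 17.7, 61.2, 73.9 and 79.9 CPM in WT. It was called in the class II deletion effect (−2.72 ± 0.49, edgeR adjusted p = 0.0401), and its difference of −2.15 ± 0.67 was not (edgeR adjusted p = 0.522). For Fabp4 all Tie2Cre libraries lay above the WT libraries, a contrast that was likewise not tested. The class II deletion call of Fabp4 was lost in 11 of 23 alternatives, with an edgeR adjusted p of up to 0.336. These were the fit of the 4 groups alone (0.123), the fit without the satellite-rich libraries (0.0907), and the fits without Tie2Cre_H2Abf_9582, Tie2Cre_H2Abf_9583, Tie2Cre_H2Abf_9589, each of the 3 Tie2Cre libraries, TCRKO_9765, TCRKO_9767 or WT_9749. Angptl2, a secreted angiopoietin-like protein, averaged 7.29 ± 4.42 CPM in Tie2Cre_H2Abf and 9.28 ± 7.005 CPM in Tie2Cre, and 48.3 ± 34.7 CPM in TCRKO and 3.52 ± 1.87 CPM in WT (SD), with a difference of −4.15 ± 1.11. Ccnd2, a D-type cyclin, had a difference of −2.38 ± 0.73, and Dym and Qpctl had −3.90 ± 1.13 and −3.06 ± 0.92. That of Dym was −2.86 without the satellite-rich libraries. None of the 8 named genes in this direction was free of overlap in both pairs. Col6a2, a chain of collagen VI, rose in TCRKO (edgeR adjusted p = 0.0339) but held only 2 counts in all WT libraries, against 354 counts in TCRKO, and no fold is given. Its call was lost in 11 of 22 alternatives.

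Cytosolic ribosomal protein genes had the reverse signs. All 28 had a difference of effects below 0, with a median of −1.78, and 0 were higher and 22 lower at an unadjusted p under 0.05, with 0 passing adjustment. The median class II deletion effect was −0.57, with 0 higher and 1 lower, and the median TCRKO effect 1.12, with 19 higher and 0 lower. Rpl41 averaged 59.6 ± 26.04 CPM in Tie2Cre_H2Abf and 76.03 ± 58.3 CPM in Tie2Cre, and 162 ± 67.4 CPM in TCRKO and 23.1 ± 16.2 CPM in WT (SD), a difference of −3.15 ± 0.91. For Rpl32 the difference was −2.74 ± 0.86. Ribosomal protein genes have many processed pseudogenes with which they share reads, so single values are uncertain. Mitochondrial respiration genes had a median difference of −0.75, below 0 in 20 of 22, with 0 higher and 1 lower at an unadjusted p under 0.05. Of 14 heat shock and chaperone genes 0 were higher and 3 lower for the difference, with a median of −0.27 (−0.605 without the satellite-rich libraries). Hspb1, a small heat shock protein, led them at −2.15 ± 0.77.

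**Figure D4:**
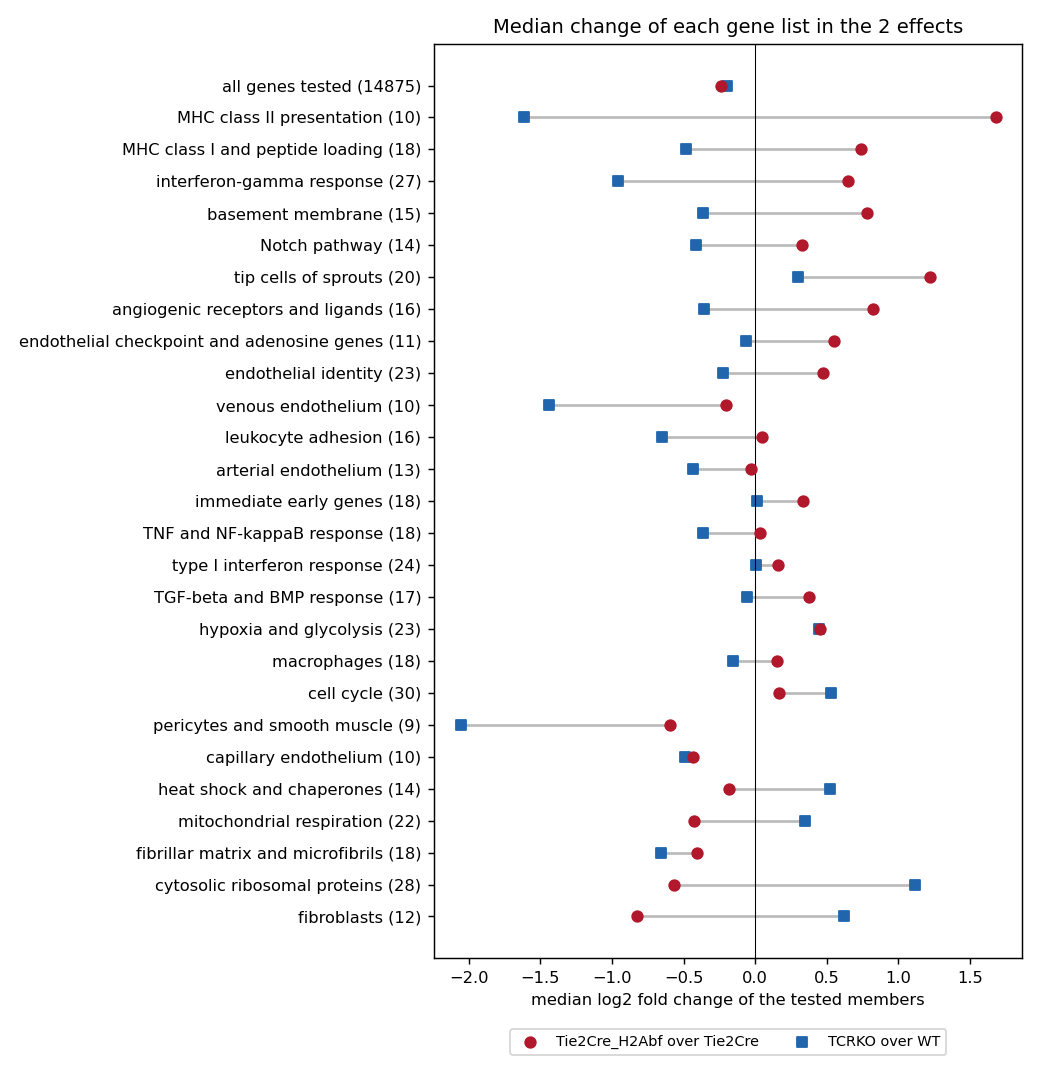
Median class II deletion effect (red circles) and median TCRKO effect (blue squares), in log2, for gene lists with at least 9 genes tested, the number tested in parentheses, beside the median over all genes tested. The class II, class I and interferon-gamma lists have a positive class II deletion median and a negative TCRKO median, and the ribosomal protein list has the reverse.

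Fbln2, Cadm3, Fbn1, Il6st and Fbln5 were among the 10 genes called lower in the mean effect. Fbln2, a fibulin of elastic fibres and basement membranes (GRCm38 chr6:91212455-91272540), had 67.5, 52.7, 91.3 and 103 CPM in Tie2Cre_H2Abf libraries, against 546, 629.6 and 317 CPM in Tie2Cre libraries. It had 76.9, 55.00 and 59.3 CPM in TCRKO libraries, against 263, 320.3, 136 and 256 CPM in WT libraries. Both pairs were fully apart. The mean effect was −2.30 ± 0.30 (edgeR adjusted p = 7.12e-04), made of a class II deletion effect of −2.66 ± 0.41, which passed by itself (edgeR adjusted p = 0.00670), and a TCRKO effect of −1.94 ± 0.43, which did not (edgeR adjusted p = 0.140). The class II deletion call of Fbln2 was lost without Tie2Cre_H2Abf_9582 or Tie2Cre_9502, with an edgeR adjusted p of up to 0.0811. The mean effect of Fbln2 passed in each of 23 alternatives, as did those of Fbn1, Cadm3 and Il6st.

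Fbn1, the microfibril protein fibrillin-1, had 7.26, 2.54, 5.52 and 7.82 CPM in Tie2Cre_H2Abf, against 36.7, 51.7 and 20.2 CPM in Tie2Cre, and 0.739, 2.26 and 1.14 CPM in TCRKO, against 45.03, 7.43, 33.6 and 28.2 CPM in WT. Neither pair overlapped. The mean effect was −3.49 ± 0.51 (edgeR adjusted p = 0.00158), and the TCRKO effect of −4.34 ± 0.78 passed by itself (edgeR adjusted p = 0.0339), though not in 12 of 23 alternatives. Fbln5, which links elastin to cell-surface integrins, had 15.8, 15.8, 30.3 and 16.1 CPM in Tie2Cre_H2Abf, against 156, 109 and 76.5 CPM in Tie2Cre, and 21.2, 16.3 and 13.9 CPM in TCRKO, against 14.4, 28.9, 59.9 and 85.6 CPM in WT. TCRKO and WT overlapped for Fbln5. Its mean effect of −2.001 ± 0.36 passed (edgeR adjusted p = 0.0153), but not in 8 of the 23 alternatives, where the adjusted p ran up to 0.125 and the mean effect stayed between −2.23 and −1.73. Those 8 were the fit of the 4 groups alone and the fits without Tie2Cre_H2Abf_9582, Tie2Cre_H2Abf_9589, Tie2Cre_9501, TCRKO_9765, TCRKO_9766, TCRKO_9767 or WT_9772. Eln, the elastin gene, averaged 3.12 ± 2.21 CPM in Tie2Cre_H2Abf and 20.4 ± 6.75 CPM in Tie2Cre, and 2.72 ± 3.30 CPM in TCRKO and 19.8 ± 14.2 CPM in WT (SD), a mean effect of −2.78 ± 0.60 that did not pass (edgeR adjusted p = 0.0802).

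Fibroblasts make fibulins, fibrillin and elastin too. The 14 fibroblast markers, Fbn1 among them, summed to 18.8 to 33.9 CPM in Tie2Cre_H2Abf, 61.2 to 124 CPM in Tie2Cre, 42.5 to 128 CPM in TCRKO and 11.9 to 88.6 CPM in WT. The 11 pericyte and smooth muscle markers summed to 35.6 to 104 CPM, 54.8 to 93.3 CPM, 31.1 to 40.9 CPM and 32.4 to 75.6 CPM in the same groups. The fibroblast sum was thus lower in Tie2Cre_H2Abf than in Tie2Cre, with no overlap, whereas TCRKO and WT overlapped. The part of these cells in the matrix values was not tested. Over the 18 tested fibrillar matrix and microfibril genes the medians were −0.40 in the class II deletion effect and −0.66 in the TCRKO effect, but the TCRKO median was 1.08 without WT_9771 and Tie2Cre_9501.

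Among cell-surface genes, Cadm3, an immunoglobulin-family adhesion molecule, had 2.83, 7.45, 7.12 and 5.79 CPM in Tie2Cre_H2Abf, against 31.7, 54.1 and 33.6 CPM in Tie2Cre, and 0.616, 1.07 and 0.227 CPM in TCRKO, against 9.27, 30.8, 2.46 and 25.2 CPM in WT. Both pairs were apart. However, the value of WT_9771 stood at its floor of 3 counts, and that of TCRKO_9767 lay below its floor of 0.682 CPM. The separation of TCRKO from WT, and the size of the TCRKO effect, thus rest on few counts. The mean effect of Cadm3 was −3.71 ± 0.54 (edgeR adjusted p = 0.00158). Its TCRKO effect of −4.65 ± 0.84 passed by itself (edgeR adjusted p = 0.0339), a call likewise lost in 12 of 23 alternatives. Il6st, the gp130 receptor shared by interleukin-6 family cytokines, had 261, 144, 246 and 207 CPM in Tie2Cre_H2Abf, against 492, 654 and 610.4 CPM in Tie2Cre, and 155, 93.6 and 62.3 CPM in TCRKO, against 386, 389, 242 and 444 CPM in WT. It was apart in both pairs as well, with a mean effect of −1.63 ± 0.25 (edgeR adjusted p = 0.00305).

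Selp, the P-selectin on which leukocytes roll along venous endothelium, had 72.9, 62.3, 74.9 and 99.4 CPM in Tie2Cre_H2Abf, against 150.4, 195 and 210.5 CPM in Tie2Cre, and 34.5, 12.2 and 27.5 CPM in TCRKO, against 155, 137, 32.8 and 147 CPM in WT. Its mean effect of −1.76 ± 0.35 passed (edgeR adjusted p = 0.0457), but not in 14 of 23 alternatives, which were the fit of the 4 groups alone and every fit without 1 library save that without WT_9771. There the adjusted p ran up to 0.311. Without the 2 satellite-rich libraries it was 0.0018. Dnm3, a dynamin, had a mean effect of −1.72 ± 0.34 (edgeR adjusted p = 0.0480), lost in 17 of 23 alternatives, among them every fit without 1 library save that without WT_9748, and with an adjusted p of 0.102 without the satellite-rich libraries.

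Further called genes had few counts in a deficient group. Masp1, a complement protease, held 30 counts in Tie2Cre_H2Abf, 243 in Tie2Cre, 0 in TCRKO and 87 in WT (edgeR adjusted p of the mean effect = 0.0153). Adamts18, a secreted metalloproteinase, held 3, 149, 0 and 65 counts in the same order (edgeR adjusted p = 0.0457). Both were named after their values were seen, and no fold is given for them. The call of Masp1 was lost in 3 of 22 alternatives, without each of the TCRKO libraries in turn, and that of Adamts18 in 12 of 22 alternatives. H2-Ab1 completes the 10 lower calls of the mean effect (−2.59 ± 0.41, edgeR adjusted p = 0.00338), and its class II deletion effect makes up most of it. With effective-length offsets its adjusted p was 0.106. Unlike the other 10 called genes, it did not have an unadjusted p under 0.05 in both effects.

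Several alike genes lower in both effects did not pass adjustment. Npr1, a natriuretic peptide receptor, averaged 13.5 ± 4.59 CPM in Tie2Cre_H2Abf and 40.8 ± 15.2 CPM in Tie2Cre, and 9.95 ± 4.70 CPM in TCRKO and 30.4 ± 4.65 CPM in WT (SD), a mean effect of −1.61 ± 0.35. Gpr182, a scavenger receptor for chemokines in sinusoidal and lymphatic endothelium, had a mean effect of −2.53 ± 0.60. Kank1, a regulator of the actin cortex, and Mettl16, an RNA methyltransferase, had mean effects of −3.01 ± 0.68 and −3.13 ± 0.65. The 21 alike lower genes also included Ackr1, Apc, Bgn, Etl4, Lrg1, Mbd5, Slc6a6, Tgfbr3 and Vcan, named to complete the count. Of the 10 named, likewise chosen by their p in both effects, 6 had no overlap in both pairs. Over all genes tested 0.471% had no overlap in both pairs with the same sign.

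**Figure D5:**
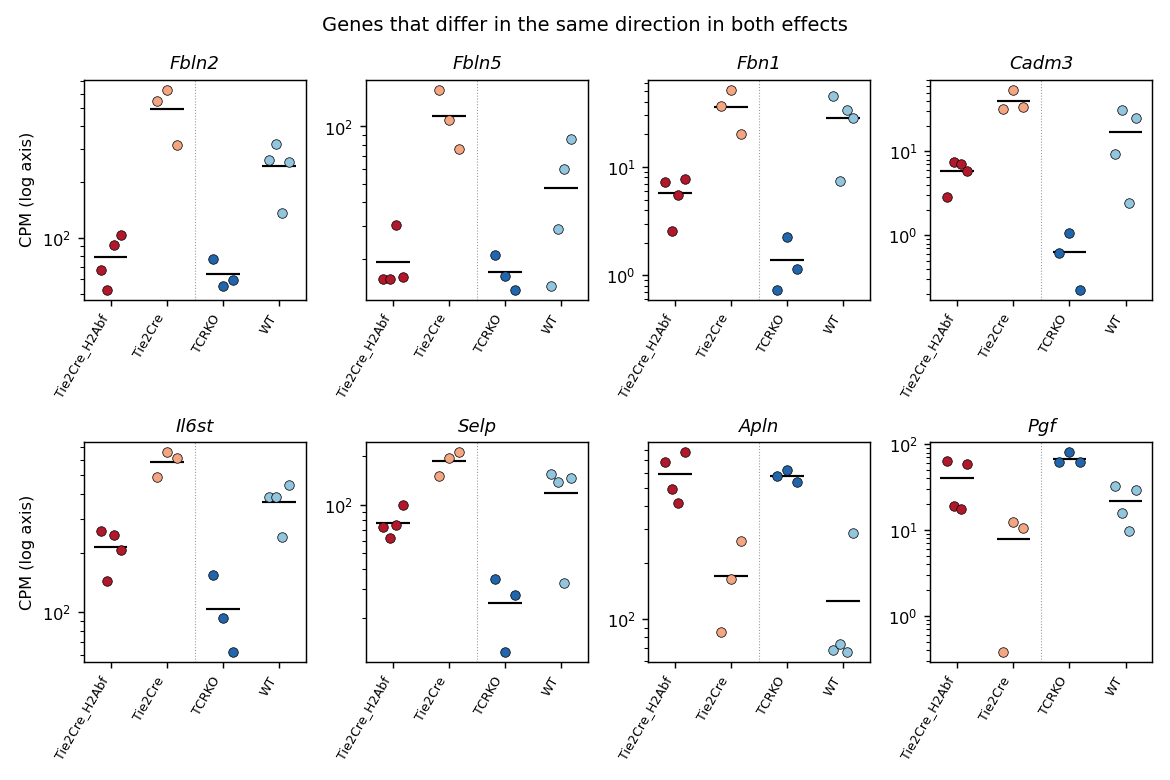
Level in CPM (log axis) of Fbln2, Fbln5, Fbn1, Cadm3, Il6st, Selp, Apln and Pgf, 1 point per library and a black bar at the group mean, with Tie2Cre_H2Abf left of Tie2Cre and TCRKO left of WT. The groups of Fbln2, Fbn1, Cadm3 and Il6st lie lower, and those of Apln and Pgf higher, in Tie2Cre_H2Abf and TCRKO than in their controls, with no overlap.

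Apln, the ligand of the apelin receptor and a gene of sprouting tip cells, was the gene called higher in the mean effect (GRCm38 chrX:48025146-48034853). It had 688, 495, 416 and 773 CPM in Tie2Cre_H2Abf libraries, against 85.03, 163 and 262 CPM in Tie2Cre libraries. In the other pair it had 577, 626 and 534 CPM in TCRKO libraries, against 68.5, 73.5, 66.5 and 288 CPM in WT libraries. Neither pair overlapped, although WT_9772 stood far above the other 3 WT libraries. The mean effect was 2.01 ± 0.34 (edgeR adjusted p = 0.00747), with effects of 1.80 ± 0.49 and 2.22 ± 0.46, neither of which passed by itself. In the fit of the 4 groups alone the adjusted p was 0.0566.

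Pgf, the placental growth factor, had 63.7, 18.97, 17.8 and 59.2 CPM in Tie2Cre_H2Abf, against 0.378, 12.6 and 10.7 CPM in Tie2Cre, and 61.5, 80.2 and 62.7 CPM in TCRKO, against 32.3, 15.9, 9.85 and 28.96 CPM in WT. All TCRKO and all Tie2Cre_H2Abf libraries lay above the libraries of their controls, and the mean effect was 1.96 ± 0.46 (edgeR adjusted p = 0.119). Hspb8, a small heat shock protein, had 21.2, 33.5, 37.4 and 31.4 CPM in Tie2Cre_H2Abf, against 0.378, 9.02 and 4.79 CPM in Tie2Cre, and 11.1, 21.5 and 25.01 CPM in TCRKO, against 1.32, 2.76, 0.821 and 5.30 CPM in WT. Its groups were apart too, with a mean effect of 2.74 ± 0.59 (edgeR adjusted p = 0.0802). Sparc, a matricellular protein, averaged 3132 ± 486 CPM in Tie2Cre_H2Abf and 1506 ± 454 CPM in Tie2Cre, and 2475 ± 249.9 CPM in TCRKO and 1359 ± 599 CPM in WT (SD), a mean effect of 0.96 ± 0.23. Gpihbp1, which anchors lipoprotein lipase on capillary endothelium, averaged 316 ± 79.5 CPM in Tie2Cre_H2Abf and 152 ± 84.3 CPM in Tie2Cre, and 363 ± 49.6 CPM in TCRKO and 167 ± 42.9 CPM in WT, a mean effect of 1.09 ± 0.29. The glycolytic gene Gapdh and the circadian repressor Nr1d1 had mean effects of 1.12 ± 0.26 and 1.40 ± 0.33. Csnk2b, a casein kinase subunit, Sh2d3c, an adaptor protein, Fzr1, an activator of the anaphase-promoting complex, and Antxr1, an anthrax toxin receptor, had 1.62 ± 0.40, 1.01 ± 0.29, 2.47 ± 0.58 and 1.84 ± 0.41. None of these besides Apln passed (edgeR). The 18 alike higher genes also included Csrp1, Dusp1, Fxyd5, Grina, Rhob, St3gal2 and Tubb3, named to complete the count. Of the 10 named genes higher in both effects, also chosen by their p in both, 8 had no overlap in both pairs. Over all genes tested the share with the same sign, in either direction, was 0.471%.

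Genes of sprouting vessels were mostly higher in the class II deletion effect. All 20 tip cell genes had a positive mean effect, with a median class II deletion effect of 1.22, 13 higher and 0 lower at an unadjusted p under 0.05, and a median TCRKO effect of 0.30, 3 higher and 0 lower. Without the satellite-rich libraries these medians were 0.859, with 10 higher and 0 lower, and 0.12, with 3 higher and 2 lower. Dll4, the Notch ligand of tip and arterial cells, averaged 248 ± 41.7 CPM in Tie2Cre_H2Abf and 83.7 ± 10.97 CPM in Tie2Cre, and 137 ± 22.4 CPM in TCRKO and 166 ± 90.2 CPM in WT (SD), a difference of 1.84 ± 0.58. Unc5b, a netrin receptor, had a difference of 1.76 ± 0.80. Flt1 and Kdr, the VEGF receptors 1 and 2, had differences of 1.55 ± 0.54 and 1.26 ± 0.60, and over 16 angiogenic receptors and ligands the median difference was 0.77, with 4 higher and 0 lower, and the class II deletion median of 0.82 was 0.452 without the satellite-rich libraries. Vegfc, a ligand of the lymphatic VEGF receptor, had 225 counts in Tie2Cre_H2Abf and 23 in Tie2Cre, and 74 in TCRKO and 181 in WT, a difference of 4.59 ± 1.46. Notch pathway genes had a median difference of 1.12 over 14 genes, with 3 higher and 0 lower, and Notch1 had 1.70 ± 0.79.

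Basement membrane genes had a higher class II deletion effect than TCRKO effect. All 15 basement membrane genes had a difference above 0, with a median of 1.13, 7 higher and 0 lower at an unadjusted p under 0.05, and 0 passing adjustment. Col15a1, a basement membrane collagen, averaged 157 ± 48.3 CPM in Tie2Cre_H2Abf and 213 ± 45.02 CPM in Tie2Cre, and 41.4 ± 16.4 CPM in TCRKO and 195 ± 93.4 CPM in WT (SD), a difference of 1.79 ± 0.57. Its mean level was thus lower than in the control in both pairs. The mean effect of Col15a1 was called in some alternatives, among them limma-voom, RLE factors and removal of the satellite-rich libraries, but not in the main fit. The laminin chains Lama5 and Lama4 had differences of 1.57 ± 0.60 and 1.51 ± 0.61, and the collagen IV chain Col4a1 1.51 ± 0.67. Fn1, the fibronectin gene, averaged 1038 ± 712 CPM in Tie2Cre_H2Abf and 196 ± 115 CPM in Tie2Cre, and 296 ± 89.1 CPM in TCRKO and 459 ± 208 CPM in WT, a difference of 3.04 ± 0.72 (edgeR adjusted p = 0.218).

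The 10 venous genes had a median class II deletion effect of −0.20, with 2 higher and 4 lower at an unadjusted p under 0.05, and a median TCRKO effect of −1.44, with 0 higher and 6 lower. Vwf, the von Willebrand factor, averaged 564 ± 195 CPM in Tie2Cre_H2Abf and 366 ± 128 CPM in Tie2Cre, and 118 ± 24.97 CPM in TCRKO and 475 ± 391 CPM in WT (SD), a difference of 2.63 ± 0.69. The venous list thus held genes of both kinds, Vcam1 and Vwf with a difference above 0 and Selp and Il6st lower in both effects. Among 16 leukocyte adhesion genes the median TCRKO effect was −0.65, with 0 higher and 5 lower (−0.396 without the satellite-rich libraries, with 0 and 6). Their median class II deletion effect was 0.050, with 1 higher and 1 lower, and its sign changed in 4 of 23 alternatives. Cx3cl1, the membrane-bound chemokine fractalkine, averaged 37.2 ± 25.96 CPM in Tie2Cre_H2Abf and 23.7 ± 3.53 CPM in Tie2Cre, and 10.7 ± 7.28 CPM in TCRKO and 45.7 ± 27.3 CPM in WT, a difference of 2.74 ± 0.84. Sele, the E-selectin gene, had 55 counts in Tie2Cre_H2Abf and 160 in Tie2Cre, and 1 in TCRKO and 204 in WT. Endothelial identity genes had a median difference of 0.61 over 23 genes, with 4 higher and 0 lower, led by Vwf and Flt1, and 0.361 with 5 higher and 0 lower without the satellite-rich libraries. The hypoxia and glycolysis list had medians of 0.45 in each effect over 23 genes, against 0.35 and 0.24 for the class II deletion and TCRKO effects without those libraries. In this list Pfkfb3, a regulator of glycolysis, had a difference of 2.66 ± 0.69. Cell cycle genes had a median difference of 0.010 over 30 genes, with 1 higher and 0 lower, and −0.601 without the satellite-rich libraries, and 0 of 18 immediate early genes had an unadjusted p under 0.05 for the difference.

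The remaining lists held few genes with an unadjusted p under 0.05 for the difference. Among 13 arterial genes the median difference was 0.44, with 3 higher and 0 lower (0.831 with 2 and 0 without the satellite-rich libraries), and Efnb2, the ephrin ligand that marks arteries, had 2.096 ± 0.72. Of 10 capillary genes 0 were higher and 1, Fabp4, lower. The 18 TNF and NF-kappaB genes had a median TCRKO effect of −0.36, with 0 higher and 5 lower, and a median class II deletion effect of 0.031, with 1 higher and 0 lower, whose sign changed in 6 alternatives. Of 17 TGF-beta and BMP genes 1 was higher and 0 lower for the difference (3 and 0 without the satellite-rich libraries), that gene being the BMP receptor Bmpr2 at 1.12 ± 0.51. Among 11 endothelial checkpoint and adenosine genes 2 were higher and 0 lower. Of these, Tnfsf10, the death ligand TRAIL, averaged 62.1 ± 28.1 CPM in Tie2Cre_H2Abf and 35.9 ± 32.9 CPM in Tie2Cre, and 13.8 ± 7.67 CPM in TCRKO and 51.3 ± 23.8 CPM in WT (SD), a difference of 2.68 ± 0.87. The other, Entpd1, which encodes the ATP-degrading enzyme CD39, had 1.16 ± 0.53. Lymphatic markers summed to 154 to 218 CPM in Tie2Cre_H2Abf, 64.998 to 107 CPM in Tie2Cre, 80.7 to 111 CPM in TCRKO and 53.3 to 173 CPM in WT, with 0 of 7 at an unadjusted p under 0.05 for the difference. The highest sum in a library was 38.4 CPM for neutrophil, 18.3 CPM for epithelial and 18.9 CPM for platelet and red cell markers, and S100a9, Retnlg and Krt19 were at 0 in all 14 libraries.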

How the data were processed

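Bulk RNA libraries of sorted CD31-positive tumour cells were prepared with MATQ amplification and a Nextera XT kit, per the labels' protocols, and the kit does not mark strand. The authors used bcl2fastq 2.17, STAR, RSEM 1.2.28, DESeq2 and build GRCm38, per the submitters' processing notes, and the sources used here do not name the annotation release. The authors deposited, per the file headers, RSEM expected counts, not normalized, for 46983 gene IDs in each of 20 libraries. Of these values 4.45% were not whole, and all were rounded. The effective length, another value deposited by the authors, served only as an offset in an alternative. RSEM splits reads among near-identical genes. A GRCm38 annotation gave symbols and positions for 46488 IDs.

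Each contrast was tested by quasi-likelihood in edgeR 4.0.16 (R 4.3.3), robust, with TMM factors and filterByExpr by group, in a model of all 6 groups of the series over 20 libraries (14 residual degrees of freedom). The common biological coefficient of variation was 0.995. The p-values were adjusted by Benjamini-Hochberg across 14875 genes. CPM values use TMM-scaled library sizes, and standard errors come from the F statistic. Alternatives were DESeq2 1.42.0, limma-voom (limma 3.58.1) with sample weights, RLE factors, no filter, at least 5 CPM in 7 libraries, only the 4 groups compared, protein-coding genes only, effective-length offsets, removal of WT_9771 and Tie2Cre_9501, and removal of each of the 14 libraries.

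Genes were named by rule. In the difference and the mean effect these are the 8 genes per direction with the smallest p, and among alike and opposite genes up to 10 per direction ordered by the larger p of the 2 effects, with a mean of at least 10 CPM. In each gene list, members were named by the 4 smallest p of the difference and the 2 smallest of the mean effect, at 1 CPM or more. Exceptions are stated, and items withheld from the text are not reported here. The comparison, its members and the 33 gene lists (500 genes) were chosen with earlier results of these data known. Each pair of replicate libraries differed by more than sampling noise (chi-square per degree of freedom 16.0 to 491), so none was counted as a duplicate. Floors and counts cover counting error only. The scripts were tested on simulated data.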

Additional observations from a re-analysis of the deposited data

Results flagged for a closer look

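Over all 14875 genes tested, 42 (0.282%) had libraries that did not overlap in either pair and effects of opposite signs. Of these, 5 were among the genes named by rule, most of which were chosen by their p-values. The differences of effects were 4.09 for Cd74, 2.40 for Timp3, 4.28 for Serpina3g, 2.49 for Gbp4 and 3.24 for Cxcl9 on the log2 scale. The difference itself was tested, and none passed (edgeR adjusted p = 0.0958, 0.177, 0.177, 0.212 and 0.218 in that order). With DESeq2 all 5 passed (DESeq2 adjusted p = 9.6e-06, 5.1e-06, 0.0013, 0.00047 and 0.012). Cd74 and Timp3 also passed in edgeR with RLE factors (adjusted p = 0.032 for each) and with at least 5 CPM in 7 libraries (edgeR adjusted p = 0.013 and 0.016). With no filter Cd74 and Serpina3g passed (edgeR adjusted p = 1.5e-04 and 0.016). Cd74 passed as well without Tie2Cre_9502 or WT_9772 (edgeR adjusted p = 0.049 for each). Gbp4 and Cxcl9 passed in DESeq2 alone.

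Single libraries stood far from the others of their group in 9 of 90 gene and group pairs examined, where chance flags about 1 in 20. The pairs covered the named genes that were tested, in Tie2Cre_H2Abf and WT, and the Tie2Cre and TCRKO groups were not examined. Tie2Cre_H2Abf_9583 was the highest of its group for Cd4 (3.74 CPM, the other 3 at 0), Cd3e (1.96 CPM), Fbln5 (30.3 CPM) and Dnm3 (24.0 CPM). WT_9771 was the lowest of its group for Pecam1 (435 CPM) and Selp (32.8 CPM). WT_9772 was the highest for Apln (288 CPM) and the lowest for Angptl2 (0.757 CPM). Tie2Cre_H2Abf_9576 was apart for Kank1 (8.32 CPM).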

How the results depend on the processing

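For genes named outside the lists, the difference or mean effect that named them kept its sign in every alternative run, but of 99 list medians, 43 changed sign in at least 1. None did for the class I, class II, interferon-gamma, ribosomal or mitochondrial lists. In the order difference, class II deletion, TCRKO and mean effect, DESeq2 called 64, 53, 172 and 211 genes and gave 80 opposite genes, RLE factors called 4, 5, 9 and 19, and no filter called 18, 9, 31 and 91, with 279 alike and 93 opposite genes. At least 5 CPM in 7 libraries gave 6, 10, 16 and 32 calls, with 50 alike and 24 opposite genes. Limma-voom called 15 genes for the class II deletion effect and 22 for the mean effect. The 4 groups alone gave 0 calls for TCRKO and 6 for the mean effect, and removal of WT_9771 and Tie2Cre_9501 gave 15 and 18. Protein-coding genes alone gave 7 TCRKO calls and effective-length offsets 2. The cause of these shifts was not tested.

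Leaving out each library in turn gave 0 to 4 calls for the difference, with 4 without Tie2Cre_9502 and 1 without WT_9772, 1 to 4 for the class II deletion effect, 0 to 18 for TCRKO, with 18 without WT_9772, and 6 to 14 for the mean effect. It gave 69 to 250 alike genes, lowest without TCRKO_9766 and highest without Tie2Cre_9502, and 26 to 104 opposite genes, lowest without TCRKO_9767 and highest without WT_9771. Removing 1 library of a 3-library group also lowers the group size on which the filter rests, so more genes are tested. No paired analysis was possible because each library number is used once. A common biological coefficient of variation of 0.995 with 3 or 4 libraries a group limits what a single gene can show.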
